A study of Mus musculus with 2 samples.

Results

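Cell cycle genes were followed through the cell classes of the young mouse hippocampus. The set held 37 of the 32285 genes measured: 17 genes of DNA replication, here called the S phase genes, and 20 genes of G2 and mitosis, here called the G2-M genes. They were chosen by name as widely used cell cycle markers, and all 37 had at least 1 count in the cells used. The data are single-cell counts of unique molecular identifiers (UMIs, each standing for 1 captured RNA molecule) read from the 5′ end of transcripts. There were 2 libraries from 4-week-old mice, 1 labelled wild type and 1 labelled Crlf3-mutant. The mutant mice carry Crlf3L389P, an amino acid change in cytokine receptor-like factor 3. For each genotype, 4 hippocampi of 2 mice were pooled as fresh tissue, dissociated with enzymes, cleared of debris and myelin and sorted for live cells that excluded the dye 7-AAD. No treatment was given. The counts do not show the allele, so the genotype labels could not be checked here.

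A dividing cell copies its DNA in S phase, prepares for division in G2 and divides in M phase. Replication genes are transcribed from late G1 under E2F transcription factors, while many mitotic genes are transcribed later under the DREAM and MuvB complexes with B-MYB and FOXM1, which act through sites named CDE and CHR and through CCAAT boxes. In the hippocampus after birth, the main dividing neural cells are the progenitors of the dentate gyrus, which make granule neurons, and microglia and cells of the vessel wall can also divide at a low rate.

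The upstream sequences of the S phase and the G2-M genes are shown first because the set is defined by 2 transcription programs. RefSeq promoters of build GRCm38.p6 were matched for 33 of the 37 genes; Aurkb, Mcm4, Tpx2 and Gins2 were not matched. In the 250 bases before each start, 3 kinds of motif were searched on both strands: E2F-type (TTCCCGC or TTGGCGC or TTCGCGC or TTGCCGC), CHR-type (TTTGAA or TTCGAA) and CCAAT. An E2F-type match was present in 9 of 15 S phase promoters (60%) and 3 of 18 G2-M promoters (16.7%), against 9.01% of all 27025 genes with a promoter in the table. A CHR-type match was present in 2 S phase promoters (13.3%) and 8 G2-M promoters (44.4%), against 19.6% of all genes. CCAAT was present in 11 S phase promoters (73.3%) and 15 G2-M promoters (83.3%), against 37.5%. CHR-type and CCAAT matches were found together in 8 G2-M promoters (44.4%) and 2 S phase promoters, against 7.93% of all genes. A match is a description of letters and does not show binding. Below are the bases nearest the start of 4 S phase genes, written 5′ to 3′ in the direction of the gene, up to 150 bases before the RefSeq start, shortened where the GENCODE gene begins earlier. In Mcm6 and Kif11 the GENCODE gene begins some bases further on. Capitals mark motif matches on either strand, and neighbouring E2F-type matches in Mcm6 overlap in pairs. Mcm6 has E2F-type matches and CCAAT, Rrm1 and Dtl have both kinds too, and Slbp has CCAAT only.
Mcm6, chr1:128359706-128359855, minus strand: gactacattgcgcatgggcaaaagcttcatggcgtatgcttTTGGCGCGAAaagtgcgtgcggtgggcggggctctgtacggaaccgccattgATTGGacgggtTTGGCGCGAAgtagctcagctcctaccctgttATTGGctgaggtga
Rrm1, chr7:102441545-102441694, plus strand: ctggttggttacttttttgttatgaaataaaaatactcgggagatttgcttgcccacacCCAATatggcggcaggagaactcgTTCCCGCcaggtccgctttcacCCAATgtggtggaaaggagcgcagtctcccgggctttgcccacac
Dtl, chr1:191575545-191575694, minus strand: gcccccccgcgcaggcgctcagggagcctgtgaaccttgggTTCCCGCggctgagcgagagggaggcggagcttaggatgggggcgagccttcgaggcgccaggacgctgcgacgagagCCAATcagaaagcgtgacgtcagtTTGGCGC
Slbp, chr5:33652575-33652724, minus strand: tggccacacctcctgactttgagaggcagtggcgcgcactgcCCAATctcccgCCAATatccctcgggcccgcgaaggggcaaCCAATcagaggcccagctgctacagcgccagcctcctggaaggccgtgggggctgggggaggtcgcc
The next 4 are G2-M genes: Top2a, which helps to define a cycling cell below, and Cdk1, Kif11 and Kpna2, the members that differed most between the libraries over the whole neuron lineage as gated here. Each holds a CHR-type match and CCAAT.
Top2a, chr11:99024190-99024339, minus strand: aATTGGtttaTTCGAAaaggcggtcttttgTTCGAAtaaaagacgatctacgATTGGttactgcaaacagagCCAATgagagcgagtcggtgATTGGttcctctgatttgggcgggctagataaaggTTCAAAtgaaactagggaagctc
Cdk1, chr10:69352939-69353062, minus strand: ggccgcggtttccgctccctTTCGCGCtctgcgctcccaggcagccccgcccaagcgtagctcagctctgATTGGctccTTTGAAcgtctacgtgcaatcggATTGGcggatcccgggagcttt
Kif11, chr19:37376232-37376381, plus strand: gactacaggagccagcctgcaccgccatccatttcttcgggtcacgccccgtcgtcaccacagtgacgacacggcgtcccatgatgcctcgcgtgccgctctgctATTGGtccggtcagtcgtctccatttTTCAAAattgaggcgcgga
Kpna2, chr11:106999542-106999675, minus strand: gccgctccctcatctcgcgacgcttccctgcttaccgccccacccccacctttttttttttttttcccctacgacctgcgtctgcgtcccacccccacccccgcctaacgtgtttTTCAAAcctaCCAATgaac

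After filtering, 7098 wild-type and 5276 mutant cells remained, with medians of 6193 and 7385 UMIs per cell. The libraries shared 64 barcodes, which is 0.83% and 1.119% of their barcodes. Cells were put into classes by marker genes that include no cell cycle gene of the set. Microglia made up 62.9% and 62.0% of cells and the neuron lineage, which comprises progenitors and young neurons marked by genes such as Eomes, Neurod1, Dcx and Sox11, 2.31% and 3.96%. Only 3 wild-type and 2 mutant cells passed as mature neurons, so the data describe cells that survived this dissociation and not the hippocampus in its normal proportions. In lineage cells, the summed lineage markers stood at 11500 and 11352 counts per 1000000 UMIs (CPM) the microglia markers at 67.1 and 62.6 CPM and the astrocyte markers at 660 and 581 CPM. In a clustering of all cells, 93 of these lineage cells lay in clusters named astrocyte and 280 in clusters named neuron lineage, and the cluster-based classes used below as an alternative therefore divide the lineage differently. In microglia, the microglia markers stood at 24093 and 24355 CPM and the lineage markers at 253 and 243 CPM. With 1 library per genotype no difference between genotypes could be tested. Intervals are exact 95% intervals for counting error, and they leave out differences between animals and the uneven spread of UMIs over cells.

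Cycling cells, defined as cells with at least 3 UMIs of Top2a and Mki67 together, were rare overall and concentrated in the neuron lineage. Top2a encodes the topoisomerase that untangles replicated DNA, and Mki67 encodes the protein Ki-67 at the chromosome surface. In the wild-type library 51 of 7098 cells (0.719%) and in the mutant library 57 of 5276 cells (1.08%) were cycling. The neuron lineage held 35 of the 51 (68.6%) and 39 of the 57 (68.4%). Its cycling share was 21.3% (of 164 cells, interval 15.3% to 28.4%) in the wild type and 18.7% (of 209 cells, 13.6% to 24.6%) in the mutant, so the intervals of the libraries overlapped. With cluster-based classes, whose lineage clusters held 120 and 21 wild-type and 144 and 30 mutant cells, the lineage shares were 3.55% and 0.575%. Few cycling cells thus lay in those clusters, and the share in the lineage depends on how the class is drawn. Near the limit of the definition, 4 wild-type and 7 mutant lineage cells had exactly 2 of these UMIs, and 5 and 0 had exactly 3. UMIs of replication genes reached further than this definition. At least 5 S phase UMIs without cycling were found in 52 wild-type (31.7%) and 77 mutant (36.8%) lineage cells. Of these, 44 and 66 had no Top2a or Mki67 UMI. The same count held for 10.8% and 15.7% of microglia and 1.80% and 2.20% of endothelial cells. In choroid plexus, where no cell was cycling, it held for 4.22% and 12.9%. The 5 UMIs are not scaled to depth, so this count does not mark replicating cells. Of the cycling lineage cells, 31 of 35 and 39 of 39 had at least 5 S phase UMIs.

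Within the lineage, cycling went with the early markers. Cells with the higher score for early markers (Eomes, Neurog2 and others) were cycling in 30 of 66 (wild type, 45.5%, interval 33.1% to 58.2%) and 30 of 87 (mutant, 34.5%, 24.6% to 45.4%). Cells with the higher score for later markers (Dcx, Igfbpl1, Neurod1, Dlx1, Dlx2 and others) were cycling in 5 of 98 (5.10%) and 9 of 122 (7.38%). Cells were also divided by markers of the granule neuron lineage (Neurod1, Prox1, Eomes and others) against Dlx-type markers of the inhibitory neuron lineage (Dlx1, Dlx2, Gad1 and others). Granule-type cells were cycling in 29 of 137 (21.2%) and 27 of 168 (16.1%), and Dlx-type cells in 4 of 24 (16.7%, 4.74% to 37.4%) and 9 of 36 (25%, 12.1% to 42.2%). The remaining 3 and 5 lineage cells were assigned to neither kind, as no kind had both the higher score and enough detected markers.

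Outside the lineage, cycling cells were few in every class. Microglia held 7 of 4464 (wild type, 0.157%, interval 0.0631% to 0.323%) and 10 of 3270 (mutant, 0.306%, 0.147% to 0.562%). Astrocytes held 1 of 778 and 1 of 494, ependymal cells 1 of 57 and 0 of 26, border macrophages 1 of 59 and 0 of 19, lymphocytes 1 of 12 and 1 of 13, and oligodendrocyte precursors 1 of 4 and 0 of 4. Among vessel cells, endothelial cells held 0 of 834 and 1 of 818, and mural cells 0 of 128 and 0 of 167. The single endothelial cell had 3 UMIs of Mki67, none of Top2a and none of the S phase genes. The choroid plexus served as a background class: not 1 of its 379 and 132 cells had a UMI of Top2a or Mki67 at medians of 10084 and 11601.5 UMIs per cell, deeper than the microglia at 6361.5 and 7743. Taken as at most 3 counts, a count of 0 among them allows a share of up to 0.792% and 2.27%, and the exact upper bounds are 0.969% and 2.76%.

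Depth differed between classes and libraries, so each cell was also thinned to 2000 UMIs and counted if any Top2a or Mki67 UMI remained. Lineage cells then gave 17.8% and 18.8%, against 29.9% and 25.8% with any such UMI before thinning. Microglia gave 0.364% and 0.464%, against 0.739% and 0.826% before thinning, and choroid plexus 0 of 376 and 0 of 131. For depth, 1 lineage cell was left out in each library, and so were 69 wild-type and 40 mutant microglia. Another 152 wild-type and 73 mutant cells carried markers of more than 1 class and stood outside the classes, with 4 cycling cells in each library. All of these had lineage markers as 1 of their 2 classes: 2 wild-type and 3 mutant cells with astrocyte markers (out of 8 and 6 such cells), 1 wild-type cell each with endothelial and mature neuron markers and 1 mutant cell with microglia markers. The last cycling cell was 1 of 26 mutant cells that no class took.

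**Figure D1:**
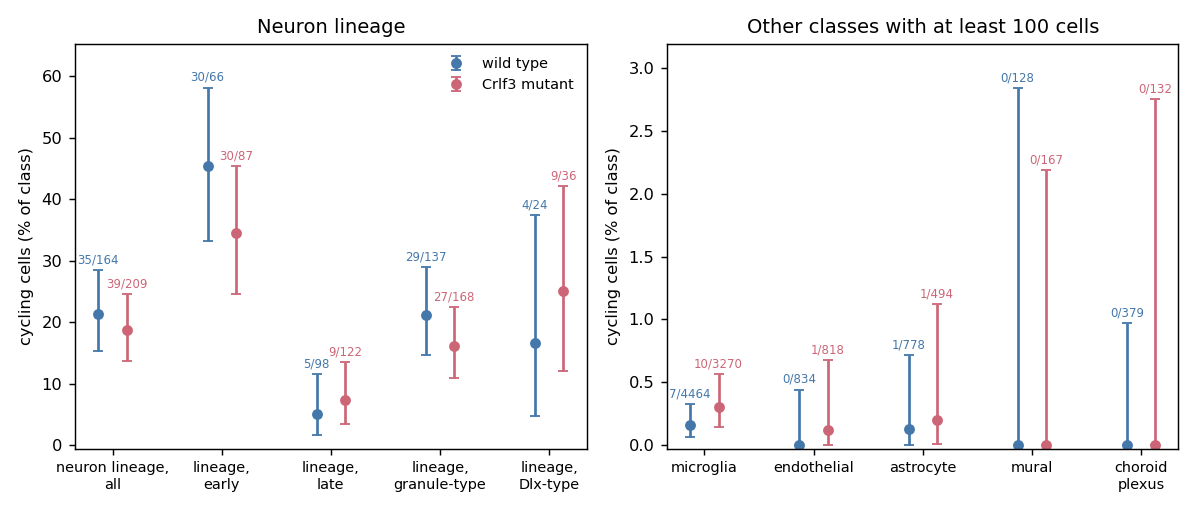
Percent of cells with at least 3 UMIs of Top2a and Mki67 together (axis in percent) in the neuron lineage with its subdivisions and in the larger other classes of each library, with cycling and all cells printed as counts and exact 95% Clopper-Pearson intervals as bars. The neuron lineage stands at 21.3% and 18.7%, microglia at 0.157% and 0.306% and choroid plexus at 0.

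The G2-M genes ranged from members almost limited to cycling cells to members also common elsewhere. All cycling cells together held 1.46% of wild-type and 2.36% of mutant UMIs. They held 95.7% and 95.2% of the UMIs of Birc5, which encodes survivin of the chromosomal passenger complex, and 92.2% and 97.5% of those of the checkpoint kinase gene Bub1. For Ube2c, the ubiquitin-conjugating enzyme of the anaphase-promoting complex, the shares were 91.9% and 92.01%. For Ccnb1, the cyclin partner of the mitotic kinase, they were 89.1% and 89.4%. The genes that define these cells stood at 94.8% and 97.3% (Mki67) and 91.5% and 98.0% (Top2a), which the definition itself raises. Of the Aurora kinases, Aurkb reached 85.5% and 91.9%, and Aurka, which acts at the centrosomes, 73.4% and 86.5%. The spindle genes Tpx2 and Nusap1 lay at 85.7% and 88.4% and at 82.8% and 92.4%. The spindle motor gene Kif11 lay at 75.4% and 89.7%. Lower still were Cdk1, at 58.8% and 79.7% with 34.9% and 31.7% of its UMIs in microglia, and Cenpa, the centromere histone gene, at 55.1% and 70.2%.

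A group of 4 G2-M genes were spread more widely. Hmgb2, a chromatin protein gene, had 26.4% and 38.1% of its UMIs in cycling cells and 57.3% and 47.7% in microglia. Its level in the neuron lineage was 1159 and 1255 CPM, in microglia 142 and 156 CPM, and in endothelial cells, where almost no cell was cycling, 135 and 128 CPM. Cks2, a small subunit of cyclin-dependent kinases, had 76.0% and 71.6% of its UMIs in microglia, at 51.2 and 60.3 CPM there. Kpna2, an importin of nuclear transport, stood at 20.4 and 26.7 CPM in microglia, 16.5 and 20.8 CPM in endothelial cells and 21.9 and 24.5 CPM in choroid plexus. Kif20b, a kinesin of cytokinesis, was closer to Cenpa and Cdk1, with 40.6% and 59.7% of its UMIs in cycling cells. It had 54.5% and 49.6% in microglia, which hold 61.3% and 62.9% of all UMIs.  Without Hmgb2, Cks2 and Kpna2, the G2-M sum of microglia was 34.2 (wild type) and 82.5 CPM (mutant), against 248 and 326 CPM with them, so these 3 genes supplied most of the sum there.

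Among the S phase genes, only some were concentrated in the cycling cells as defined by Top2a and Mki67. That definition leaves out cells with S phase UMIs and no Top2a or Mki67 UMI. Rrm2, the regulated subunit of ribonucleotide reductase, which makes deoxynucleotides, had 83.2% and 85.8% of its UMIs in cycling cells. Uhrf1, which recruits DNA methylation maintenance to new DNA, had 63.7% and 70.5%, Cdc6, a loader of the replicative helicase, 62.8% and 62.6%, and Dtl, the substrate receptor of a ubiquitin ligase active in S phase, 62.6% and 68.0%. Hells, a chromatin remodeller, had 53.6% and 56.3%. Of the 6 genes of the replicative helicase, Mcm2 to Mcm7, none passed the 45.2% of Mcm5 in the mutant library. Mcm3 was the most microglial of them, with 77.3% and 69.9% of its UMIs in microglia, at 43.3 and 42.6 CPM there, and 10.8% and 16.8% in cycling cells.

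Slbp and Pcna were expressed broadly. Slbp encodes the protein that binds the stem-loop of histone mRNAs, and it had 5.29% and 7.25% of its UMIs in cycling cells and 79.6% and 78.7% in microglia. Its levels were 164 and 152 CPM in the neuron lineage, 139 and 148 CPM in microglia, 47.6 and 49.9 CPM in endothelial cells and 28.8 and 30.4 CPM in choroid plexus. Pcna encodes the sliding clamp of DNA polymerases. Its levels were 187 and 169 CPM in the lineage, 59.1 and 60.8 CPM in microglia, 45.9 and 49.7 CPM in endothelial cells and 23.8 and 23.0 CPM in choroid plexus, so even the class with no cycling cell held UMIs of both genes. Mcm4 had the largest part of its UMIs, 42.9% and 34.7%, outside both the lineage and microglia.

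**Figure D2:**
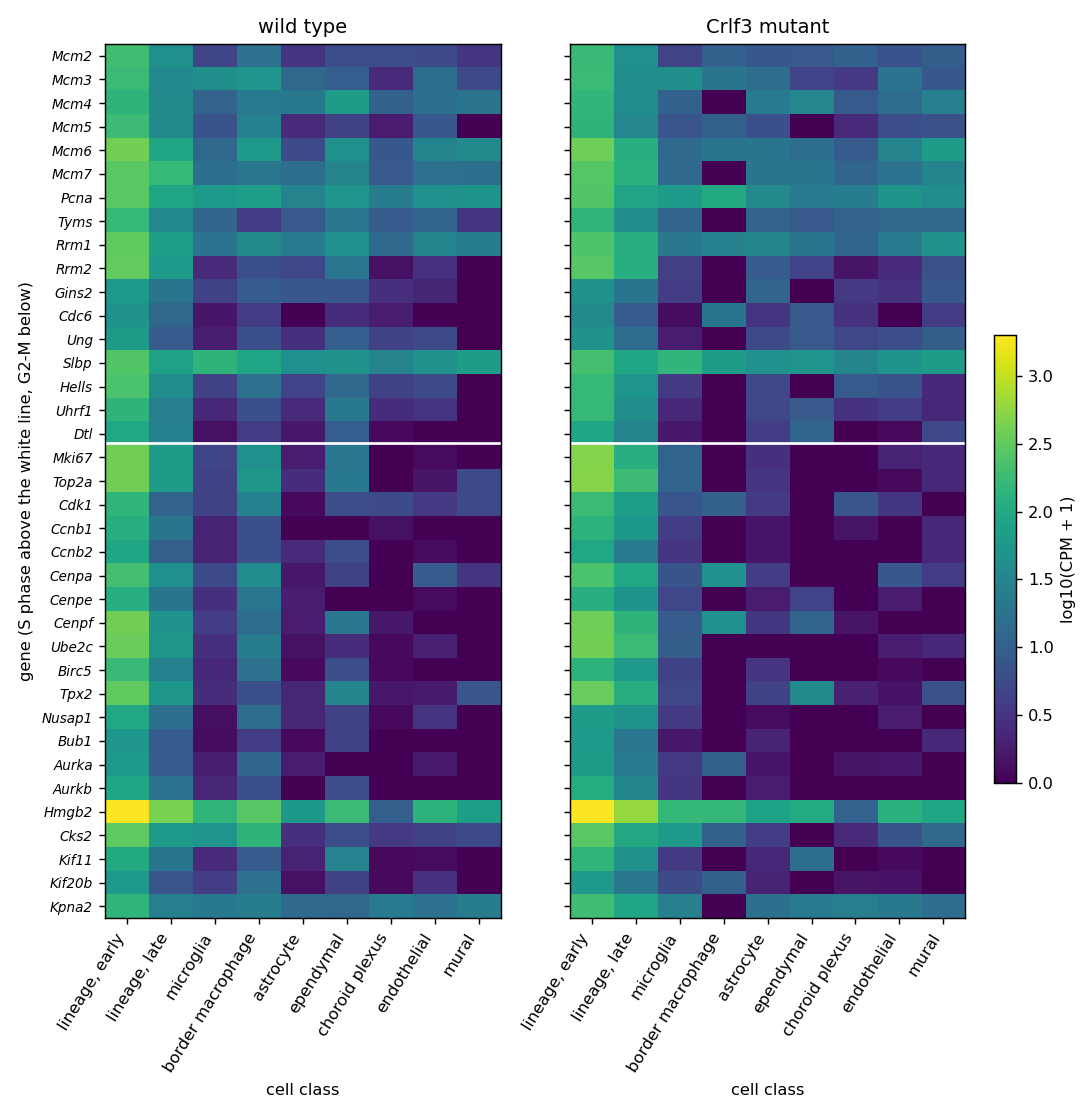
Level of each of the 37 genes (summed UMIs of the class, as colour, log10 of CPM + 1) in the cell classes, with 1 panel for each library and the S phase genes above the white line. Slbp, Pcna and Hmgb2 are present in every class shown, while Top2a and Mki67 are at 0 in choroid plexus.

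Cycling lineage cells were then compared with the other lineage cells of the same library. Since Top2a and Mki67 chose the cells, their values are given as description only: Top2a stood at 693 and 1207 CPM in cycling cells and 6.68 and 4.58 CPM in the others, and Mki67 at 679 and 1053 CPM against 10.5 and 8.02 CPM. A ratio of at least 2 in both libraries was found for 16 of the 17 S phase genes and for all 19 G2-M genes with a ratio (Top2a and Mki67 among them), against 5.36% of all 7773 genes with enough UMIs. With cluster-based classes this held for 6 S phase and 1 G2-M gene, and after thinning to 2000 UMIs for 5 and 6. Under these settings a gene with fewer than 30 UMIs in a library, or none in the other cells, counted as not reaching the ratio. The lower counts therefore do not show that the ratios themselves fell. The median ratio was 5.31 and 5.59 for S phase genes and 41.9 and 48.4 for G2-M genes. Bub1 had no ratio because its mutant count in the other cells was 0, while 21 of 35 wild-type and 32 of 39 mutant cycling cells had a Bub1 UMI.

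The S phase genes differed in how far they were limited to cycling lineage cells. Rrm2 stood at 543 and 641 CPM in cycling cells and 20.98 and 24.1 CPM in the others, and Uhrf1 at 221 and 298 CPM against 17.2 and 24.6 CPM. Tyms, thymidylate synthase, stood at 248 and 250 CPM against 26.7 and 31.5 CPM. Mcm7 was at 346 and 364 CPM in cycling cells and still at 166 and 131 CPM in the others, of which 61.2% and 63.5% had an Mcm7 UMI. Mcm6 was at 480 and 473 CPM against 127 and 153 CPM. Ung, which removes uracil from DNA, was the exception to the ratio of 2, with 71.8 and 40.4 CPM against 17.2 and 25.8 CPM.

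Of the G2-M genes, Cdk1, the kinase that drives mitosis, stood at 230 and 440 CPM in cycling lineage cells, with 5 UMIs in the 129 other wild-type cells and 1 UMI in the 170 other mutant cells. Kif11 stood at 182 and 339 CPM, with 1 and 3 UMIs in the other cells. Cenpa was at 357 and 526 CPM against 19.1 and 21.8 CPM, and Cenpf, of the outer kinetochore, at 640 and 864 CPM against 17.2 and 22.3 CPM. Cks2, broad in microglia, was still sharply divided here, with 531 and 632 CPM in cycling and 15.3 and 22.9 CPM in other lineage cells. Hmgb2 was present in 55.8% and 65.3% of the other lineage cells, at 269 and 298 CPM, and reached 3073 and 3759 CPM in cycling cells.

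Other cell cycle genes were grouped in 12 lists of 166 genes. Every list had a larger share of genes above the ratio of 2 than the 5.36% over all genes, and the shares differed between lists. A ratio of at least 2 in both libraries was found for 13 of 13 kinetochore genes with a ratio, 10 of 10 genes of the passenger complex and condensin, 10 of 11 mitotic motor and spindle genes and 7 of 7 mitotic entry genes. Ccna2, cyclin A, stood at 375 and 475 CPM against 5.72 and 1.72 CPM. Spc25, of the NDC80 complex, stood at 217 and 286 CPM, with 1 and 5 UMIs in the other cells. The replication fork list had 21 of 22, including Lig1, which joins Okazaki fragments, at 262 and 213 CPM against 38.1 and 31.5 CPM. The anaphase list had 6 of 11, with Cdc16, Cdc27, Pttg1 and Anapc11 among those below, and was led by Cdc20, the activator of the anaphase-promoting complex, at 322 and 358 CPM with 1 and 5 UMIs elsewhere in the lineage.

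The other lists, again against 5.36% of all genes, had 5 of 7 (nucleotide supply), 2 of 3 (CDK inhibitors), 5 of 8 (spindle checkpoint), 7 of 14 (origin licensing), 5 of 13 (E2F, RB and DREAM factors) and 2 of 9 (G1 cyclins and kinases). In the last list, Ccnd2, a D-type cyclin of G1, stood at 1320 and 1486 CPM in cycling and 747 and 854 CPM in other lineage cells, while Cdk2, the S phase kinase, stood at 75.9 and 86.9 CPM against 11.4 and 13.2 CPM. Cdkn1b, which encodes the CDK inhibitor p27, stood at 277 and 367 CPM against 391 and 364 CPM, while the other CDK inhibitor genes Cdkn2d and Cdkn2c stood at 129 and 207 CPM against 51.5 and 59.6 CPM and at 228 and 193 CPM against 107 and 90.5 CPM. In nucleotide supply, Dut, which removes dUTP, stood at 672 and 605 CPM against 88.7 and 102 CPM.

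Among all genes outside the set, those with the highest ratios between cycling and other lineage cells in both libraries were 5 histone genes (Hist1h2ap, Hist1h1b, Hist1h2af, Hist1h3b and Hist1h2ao) together with Cdc20, Ccna2, Prc1, Spc25 and Knl1. Hist1h2ap stood at 3483 and 3613 CPM in cycling cells and 56.3 and 44.7 CPM in the others. Histone genes have near-identical copies, so reads may have been divided among them or dropped in counting, and their values are uncertain. In cycling against other microglia, the top 10 were Hist1h2ap, Pclaf, Prc1, Racgap1, Knl1, Cdca8, Ccna2, Hist1h1b, Ckap2l and Smc2, with Hist1h2ap, Prc1, Knl1, Ccna2 and Hist1h1b in both lists. The lists share the definition by Top2a and Mki67.

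Cycling microglia showed the G2-M genes strongly and the S phase genes unevenly. All 14 S phase and all 17 G2-M genes with enough UMIs had a ratio of at least 2 over other microglia in both libraries, against 11.5% of 11302 genes. Top2a and Mki67 are among the 17, and the definition of a cycling cell fixed their ratio. Birc5 stood at 310 and 505 CPM in cycling microglia and at 0.23 and 0.15 CPM in the others, and Ube2c at 451 and 1181 CPM against 0.30 and 0.88 CPM. Rrm2 stood at 300.5 and 429 CPM against 0.47 and 0.42 CPM. But 17 of its 32 wild-type and 44 of its 73 mutant UMIs in cycling microglia lay in 1 cell of each library. These cells also held 111 and 73 UMIs of neuron lineage markers. Slbp stood at 460 and 394 CPM in cycling and 138 and 147 CPM in other microglia. The S phase genes supplied 21.1% and 15.8% of all UMIs of the set in cycling microglia, and 33.9% and 27.0% in cycling lineage cells.

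Lineage markers were present in some cycling microglia, so they were also viewed by that content. Of the 7 wild-type cells, 2 had at least 5 UMIs of lineage markers (111 and 159), and so did 3 of the 10 mutant cells (38, 60 and 73). Among other microglia this held for 3.55% and 5.74% of cells. The part of doublets in these cells was not tested. In the remaining 5 and 7 cells, S phase genes supplied 17.4% (interval 14.8% to 20.4%) and 9.21% (8.05% to 10.5%) of the set's UMIs, and the G2-M sum was 10591 and 18819 CPM. Of those 7 mutant cells, 6 had between 250 and 416 UMIs of G2-M genes with 5 to 33 of S phase genes, and 1 had 103 S phase and 61 G2-M UMIs. In the 2 and 3 cells with lineage markers, S phase genes supplied 26.8% and 39.5%.

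**Figure D3:**
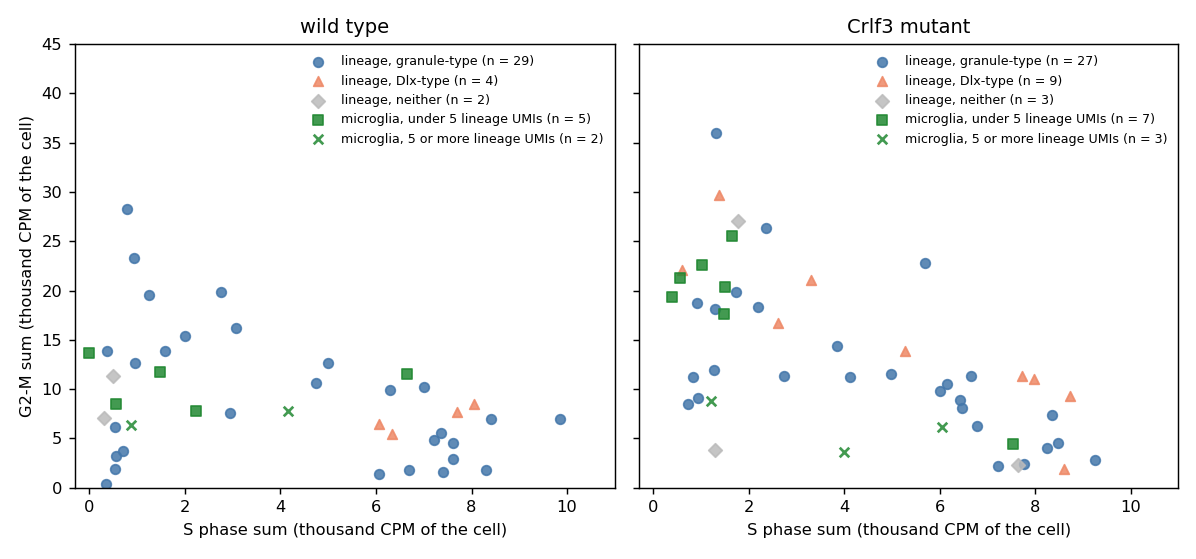
G2-M sum against S phase sum (CPM of the cell, axes in units of 1000 CPM) of each cycling lineage and microglial cell, with 1 panel for each library, lineage kinds in different symbols and microglia divided by lineage marker UMIs. Most cycling microglia lie at a high G2-M sum with few S phase UMIs, while lineage cells spread over both axes.

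Between the genotypes, the neuron lineage differed in the G2-M genes and little in the S phase genes. The S phase sum was 2081 (wild type) and 1975 CPM (mutant), a log2 ratio of mutant over wild type of -0.08 (interval -0.14 to -0.01). The G2-M sum was 3204 and 3950 CPM, a log2 ratio of 0.30 (0.25 to 0.35). It was larger in cycling cells, where the G2-M sum was 9189 and 12999 CPM over 35 and 39 cells (log2 ratio 0.50), and the S phase sum 4717 and 4799 CPM (0.02). Top2a and Mki67 chose these cells and are part of the G2-M sum. Exactly 3 UMIs of them, the limit of the definition, were held by 5 wild-type and 0 mutant cells. Median depths of the cycling cells were 13376 and 16883 UMIs. In the other lineage cells the G2-M sum was 420 and 489 CPM. With classes taken from clusters instead of marker genes, the lineage log2 ratio was -0.32 for the G2-M sum and 0.02 for the S phase sum. Both signs thus differed between these ways of drawing the class. That cluster-based lineage kept few cycling cells, as its cycling shares above show. Its ratios therefore do not describe the cycling cells of the gated lineage.

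The cells behind these sums overlapped widely. Per cycling lineage cell, the G2-M level ran from 351 to 28222 CPM with a median of 7119 in the wild type, and from 1879 to 36003 CPM with a median of 11272 in the mutant. The S phase medians were 4748 and 4973 CPM. G2-M exceeded S phase UMIs in 22 of 35 wild-type and 30 of 39 mutant cells. The 5 richest cells supplied 35.3% and 32.9% of the G2-M UMIs.

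Member by member, fold changes of single genes were computed with 10 CPM added to both levels, for genes with at least 50 CPM and 30 UMIs in the higher library; the intervals given are of the ratio without that addition. Of the 17 S phase genes 14 met this minimum in the lineage and 0 differed by 1.5 times, and of the 20 G2-M genes 17 met it and 3 reached 1.5 times on the mutant side, against 0.224% of all 4469 genes (0.448% in either direction). The median log2 ratio was -0.06 over the S phase genes, with 9 below 0, and 0.34 over the G2-M genes, with 16 above 0. Over all genes it was 0.00. Gins2, Cdc6, Ung, Bub1, Aurka and Kif20b did not meet the minimum.

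The 3 higher genes were Kpna2, Cdk1 and Kif11. Kpna2 (build GRCm38, chromosome 11, positions 106988629 to 106999541) had lineage levels of 83.3 CPM (wild type) and 139 CPM (mutant), a log2 ratio of 0.68 (interval 0.44 to 1.05). Cdk1 (chromosome 10, 69335146 to 69352938) stood at 76.2 and 122 CPM, a log2 ratio of 0.62 (0.37 to 1.004). Kif11 (chromosome 19, 37376403 to 37421859) stood at 58.6 and 94.9 CPM, a log2 ratio of 0.61 (0.34 to 1.06). Birc5 stood at 97.0 CPM in both libraries (log2 ratio -0.00). Kif11 was at -0.09 in cells thinned to 2000 UMIs, and Cdk1 was at -0.37 with cluster-based classes, whose lineage kept few cycling cells.

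Below 1.5 times, Top2a stood at 225 and 337 CPM (log2 ratio 0.57), Ccnb1 at 65.7 and 96.1 CPM (0.49), Ube2c at 202 and 285 CPM (0.48), Mki67 at 223 and 297 CPM (0.40) and Hmgb2 at 1159 and 1255 CPM (0.11). Their intervals all lay above 0. But with cluster-based classes, whose lineage kept few cycling cells, Top2a stood at -0.74, Mki67 at -0.71, Hmgb2 at -0.19 and Ube2c at -0.11. On the S phase side, Mcm5 stood at 107 and 85.8 CPM (-0.29, interval -0.63 to -0.02) and Hells at 135 and 109 CPM (-0.29, -0.58 to -0.04). Uhrf1 stood at 82.0 and 100.3 CPM (0.26, -0.03 to 0.61) and Rrm2 at 187 and 195 CPM (0.06). The helicase genes were mixed in sign, with Mcm4 at 0.10, Mcm3 at 0.08 and Mcm6 at 0.02 beside Mcm7 at -0.18 and Mcm2 at -0.13.

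Divided by kind, the G2-M sums of the libraries stood further apart in Dlx-type than in granule-type cells. In granule-type cells the G2-M sum was 3223 and 3350 CPM (log2 ratio 0.06, interval -0.00 to 0.11), and none of 17 G2-M and 14 S phase genes was 1.5 times apart, against 0.492% of all genes. The median over the G2-M genes was 0.04, with 9 above and 8 below 0. Apart from each other, cycling granule-type cells stood at 9481 and 12398 CPM (0.39, 0.33 to 0.45) and the others at 397 and 537 CPM (0.43, 0.25 to 0.62). The cycling share was 29 of 137 and 27 of 168. Top2a and Mki67 divide these parts and also belong to the G2-M sum. Exactly 3 of their UMIs were held by 5 wild-type and 0 mutant granule-type cells, and exactly 2 by 4 and 7. How far this cut moved the values of the parts was not tested. In the 24 wild-type and 36 mutant Dlx-type cells the G2-M sum was 2845 and 6082 CPM (log2 ratio 1.10, 0.96 to 1.23) and the S phase sum 3375 and 2547 CPM (-0.41, -0.55 to -0.26). All 20 G2-M genes had a higher CPM in the mutant Dlx-type cells, and 15 of the 17 S phase genes a lower one. Of the 2315 genes that met the minimum level there, 70.5% lay above 0 and 684 below. The minimum asks for a fixed number of UMIs in the higher library. Dlx-type cells were more numerous and deeper in the mutant library (median 10191 UMIs, against 6607 in the wild type). Genes could thus meet it more easily through the mutant library. The share therefore does not show that most genes leaned to the mutant side. Of the G2-M genes 18 met the minimum level, but 15 of them met it in the mutant library alone, where they are high, so a count over them is no support. Of the 3 that met it in both libraries, 2 had a mutant level at least 1.5 times the wild-type one. The share was 13.9% over all 2315 genes, but these had met the minimum in either library. The filters differ, so no conclusion is drawn from these shares. Of the S phase genes 11 met the minimum in either library, all 11 of them in both, and 5 were at least 1.5 times lower. Over all 2315 genes 2.98% were lower by that much (16.8% in either direction), beside a median of 0.14. These background values hold genes that entered through the mutant library alone, which limits the comparison.

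The Dlx-type values rest on 4 and 9 cycling cells. Ube2c stood at 53.0 and 495 CPM there (10 and 200 UMIs, log2 ratio 3.004), Ccnb1 at 26.5 and 188 CPM (2.44), Cenpa at 31.8 and 213 CPM (2.42) and Cdk1 at 53.0 and 245 CPM (2.02). Aurkb stood at 101 and 106 CPM (0.07). Pcna stood at 344 and 198 CPM (-0.77), Slbp at 328 and 201 CPM (-0.69) and Mcm5 at 191 and 99.0 CPM (-0.88), while Rrm2 stood at 344 and 386 CPM (0.16). In the 4 wild-type cells, S phase genes supplied 48.5% to 53.7% of the set's UMIs, and in the 9 mutant cells 2.64% to 82.1%. The 4 wild-type cells were thus close to one another, and the mutant cells ranged on both sides of them. No test of the difference between granule-type and Dlx-type cells was possible with 1 library each. The Dlx-type G2-M log2 ratio was -1.59 with cluster-based classes, whose lineage kept few cycling cells.

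By stage, no gene of the set differed by 1.5 times in early lineage cells (0 of 16 S phase and 0 of 20 G2-M genes, against 2.44% of all genes, 1.29% higher and 1.15% lower), with median log2 ratios of -0.17 and 0.12. In late lineage cells all 20 G2-M genes had a higher CPM in the mutant, beside 47.8% of all genes that met the minimum level there. Of the 12 that met the minimum level, 6 met it in the mutant library alone. Of the 6 that met it in both, 5 reached 1.5 times on the mutant side and 0 were lower by that much. Over all genes the shares were 1.74% higher and 0.894% lower (2.64% in either direction). Those genes had met the minimum in either library, so the filters differ and no conclusion is drawn from the shares. Rrm2 and Rrm1 were the S phase genes past 1.5 times there. Cdk1 stood at 10.3 and 66.9 CPM in late cells (8 and 81 UMIs, log2 ratio 1.92), Ube2c at 54.3 and 177 CPM (1.54), and Rrm2 at 59.5 and 116 CPM (0.86). Stage and kind were not independent: Dlx1, Dlx2, Dlx6os1, Neurod1 and Prox1 counted as late markers and Eomes and Neurog2 as early ones. Of the Dlx-type cells 21 of 24 and 34 of 36 were late, so the late and the Dlx-type differences describe partly the same cells. Late Dlx-type cells had a G2-M sum of 2136 and 5127 CPM with 2 of 21 and 7 of 34 cells cycling, and late granule-type cells 739 and 680 CPM with 3 of 77 and 2 of 88. Early granule-type cells, with 26 of 60 and 25 of 80 cycling, stood at 5457 and 5372 CPM. In the cycling part of all early cells the G2-M sum was 9267 and 12395 CPM (log2 ratio 0.42).

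**Figure D4:**
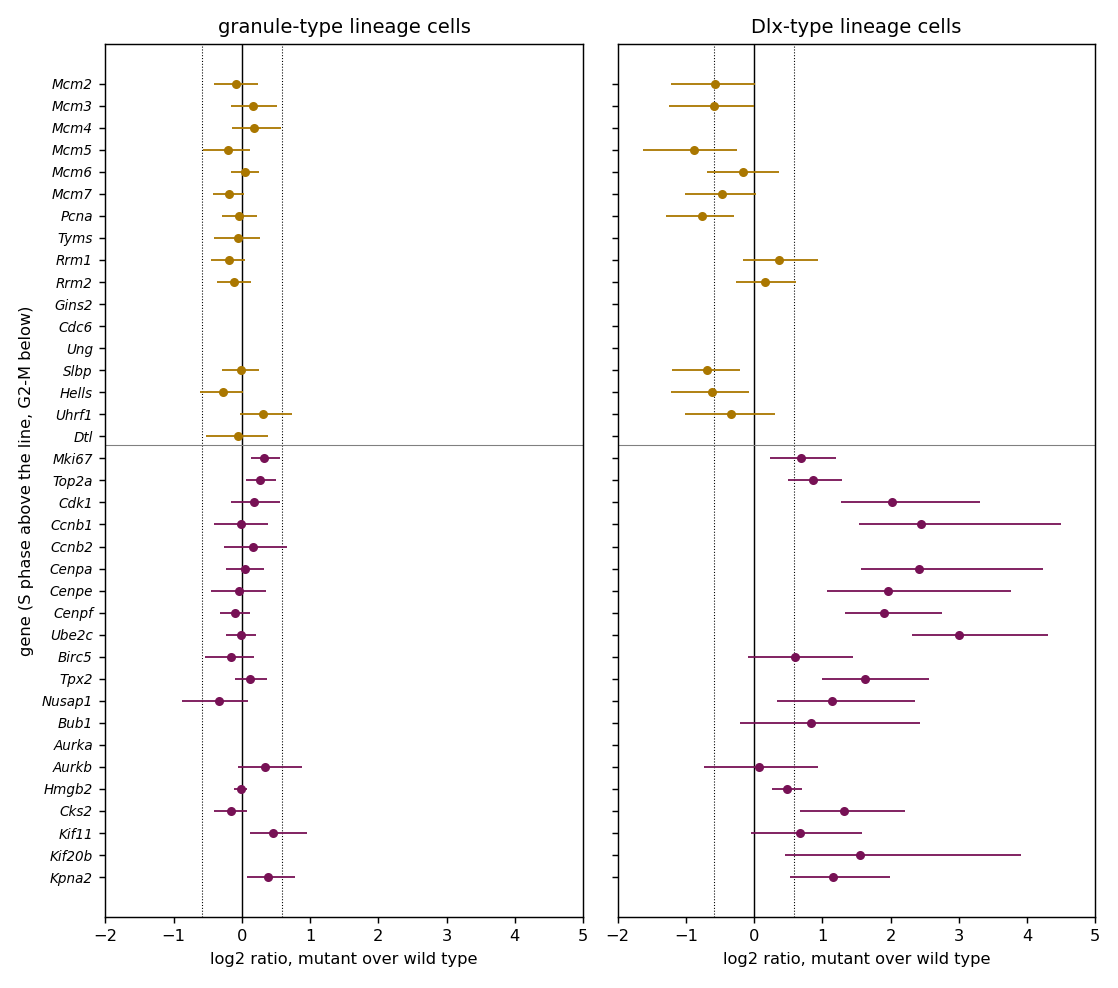
Log2 ratio of mutant over wild type (10 CPM added to each level) for each gene above the minimum level in granule-type (left) and Dlx-type (right) lineage cells, with S phase genes above the line, dotted lines at 1.5 times and bars for the exact 95% interval of the ratio without that addition. Granule-type G2-M genes lie on both sides of 0 (9 above and 8 below), and those shown for Dlx-type cells lie above it, 15 of 18 having met the minimum level in the mutant library alone.

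In the other cell cycle lists, no measured gene of the lineage was 1.5 times apart between the libraries. The median log2 ratio was -0.17 over 15 replication fork genes, with 12 below 0, and the largest were Lig1 at -0.38 (109 and 81.6 CPM) and Prim1, the primase subunit, at -0.34 (81.4 and 62.2 CPM). It was -0.13 over 4 nucleotide supply genes, -0.10 over 7 licensing genes, with the helicase loader gene Cdt1 at -0.34, and -0.10 over 4 E2F, RB and DREAM genes. On the mitotic side it was 0.26 over 7 genes of the passenger complex and condensin, with Cdca8, which encodes borealin, at 0.34, and 0.25 over 4 spindle checkpoint genes, with Sgo2a, a protector of centromeric cohesion, at 0.57 (39.7 and 63.8 CPM). It was 0.23 over 2 mitotic entry genes, 0.17 over 11 motor and spindle genes, 0.05 over 6 kinetochore genes and 0.03 over 9 anaphase genes. G1 cyclins and kinases had 0.07 over 5 genes and CDK inhibitors 0.04 over 3, with Cdkn2d at 0.36 and Cdkn2c at -0.27. Within the lineage, 2 of 19 fork genes of early cells were at least 1.5 times lower in the mutant, Fen1 at -0.63 and Lig1 at -0.59, against 1.15% of all genes. In Dlx-type cells 12 of 13 motor and spindle genes, 7 of 9 genes of the passenger complex and condensin, 5 of 8 anaphase genes and 3 of 3 mitotic entry genes were at least 1.5 times higher, against 13.9% of all genes, with the same limit on counts over genes that met the minimum level through the mutant library.

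In microglia, only Pcna, Slbp, Hmgb2 and Cks2 met the minimum level, and 0 of these 4 differed by 1.5 times, against 0.123% of 3244 genes (0.0617% higher and 0.0617% lower). Their log2 ratios were 0.03, 0.09, 0.13 and 0.20. The S phase sum was 329 and 339 CPM (0.04), and the G2-M sum was 248 and 326 CPM (log2 ratio 0.39, interval 0.35 to 0.44). In the microglia that were not cycling the G2-M sum was 217 and 233 CPM (0.11), and in the 7 and 10 cycling cells 8996 and 14484 CPM (0.69). Top2a and Mki67, which chose the cycling cells, are part of this sum. Below the minimum, Top2a stood at 3.36 and 10.5 CPM (101 and 275 UMIs) and Ube2c at 1.90 and 8.53 CPM (57 and 224 UMIs), mostly from those 7 and 10 cells, which held 80 and 263 of the Top2a and 48 and 201 of the Ube2c UMIs. With cluster-based classes no cycling cell counted as microglia, and the G2-M log2 ratio was 0.08.

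Sums in the other large classes were low. In astrocytes the S phase sum was 176 and 244 CPM (log2 ratio 0.47, interval 0.34 to 0.61) and the G2-M sum 83.6 and 123 CPM (0.56, 0.36 to 0.76). The single cycling astrocyte of each library supplied 58 of 832 and 156 of 915 S phase UMIs, and without it the sums were 164 and 204 CPM and 76.4 and 99.5 CPM. Hmgb2 was the only member above the minimum there, at 56.6 and 80.3 CPM (0.44). In endothelial cells the sums were 236 and 239 CPM and 173 and 170 CPM, and in choroid plexus 116 and 132 CPM and 40.6 and 45.4 CPM, with log2 intervals that hold 0. Mural cells had 219 and 335 CPM of S phase genes (0.61, 0.27 to 0.97) and 114 and 131 CPM of G2-M genes, from 128 and 167 cells with no cycling cell. In border macrophages the G2-M sum was 756 and 284 CPM, and 142 of the 279 wild-type UMIs came from 1 cycling cell. Classes of few cells had higher sums. Oligodendrocyte precursors (4 and 4 cells) had S phase sums of 2911 and 442 CPM, 71 of the 88 wild-type UMIs from 1 cycling cell. Lymphocytes (12 and 13 cells) had S phase sums of 1368 and 1156 CPM and G2-M sums of 1011 and 2061 CPM, with 1 cycling cell in each library. Monocytes and neutrophils (5 and 11 cells, none cycling) had G2-M sums of 1067 and 972 CPM.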

How the data were processed

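Single-cell 5′ RNA counts were analysed for 2 libraries, 1 per genotype. The values are unnormalized UMI counts for each gene in each cell, as deposited; the authors made them with Cell Ranger 6.1.1 on mm10, per the submitters' processing notes, which also list Partek without a role. Cells needed 500 genes, 1000 UMIs and no more than 10% mitochondrial UMIs (7246 of 7713 wild-type and 5353 of 5720 mutant barcodes), and doublets called by Scrublet in scanpy 1.11.5 at an expected rate of 0.06 were removed (148 and 77 cells, 2.04% and 1.44%). The cells used held 48973371 and 41736212 UMIs.

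Each cell was placed in 1 of 14 classes by 136 marker genes, not all of which are reported here: a score of at least 0.2, at least 3 detected markers and a second score of at most 0.75 of the top one. This scoring was set after the files were read, and the 37 genes, the markers and the other lists were chosen with earlier results of these data known. Levels are counts summed over the cells of a class, per 1000000 UMIs. Fold changes of single genes used a pseudocount of 10 CPM, and intervals are exact Poisson, conditional binomial or Clopper-Pearson intervals at 95%. With 1 library per genotype no test was made. Named genes were all 37 members, up to 4 genes of each other list with the largest difference between libraries, up to 3 with the largest ratio between cycling and other cells, and the top 10 other genes in cycling lineage cells and microglia. Other genes named in the text were chosen after their values were seen. The summary steps were tested on simulated data. Alternatives covered the classes, thinning, filters, pseudocount and cells left out.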

Additional observations from a re-analysis of the deposited data

Results flagged for a closer look

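Several differences between the libraries pointed in opposite directions in related groups of cells, each with 1 library per genotype, and none of these contrasts was tested. In cycling cells the log2 ratio of mutant over wild type of the S phase sum was 0.11 in granule-type and -0.43 in Dlx-type cells. In lineage cells that were not cycling it was 0.24 and -0.95 for the S phase sum, and 0.43 and -1.40 for the G2-M sum. The S phase sum of all cells stood at -0.17 in early and 0.24 in late lineage cells, and at -0.08 in the neuron lineage and 0.04 in microglia. Cells with markers of more than 1 class, which no comparison used, were cycling in 2.63% of wild-type and 5.48% of mutant cells.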

How the results depend on the processing

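No paired analysis was possible because each genotype has 1 library. Values below are mutant over wild type log2 ratios unless said otherwise. With cluster-based classes (Leiden), directions reversed for the lineage G2-M sum (-0.32), the lineage S phase sum (0.0225), Cdk1 (-0.37), the Dlx-type G2-M sum (-1.59), the median of the G2-M genes (-0.19) and of the motor genes (-0.066). Few cycling cells stayed in the lineage of these classes. The same classes gave 0.0755 for the microglial G2-M sum, -0.0006 for the fork median, 0 G2-M genes at 1.5 times, 1 G2-M and 6 S phase genes at a ratio of 2 between cycling and other cells, and cycling shares of 3.55% and 0.575% in the lineage and 0% and 0% in microglia. Counting clusters with at least 25% lineage cells as lineage, an alternative chosen after seeing the data, gave 0.36 (lineage G2-M), 0.0179 (lineage S phase), 0.0755 (microglial G2-M), medians of 0.40 and 0.0532, and 0% and 0% cycling microglia. Thinning to 2000 UMIs gave 0.24 and 0.0885 for the microglial G2-M and S phase sums, 0.072 for the lineage S phase sum, -0.0863 for Kif11, medians of 0.44 (G2-M), 0.22 (S phase) and -0.68 (fork), 3 S phase genes at 1.5 times, 6 G2-M and 5 S phase genes at a ratio of 2, and, counting any Top2a or Mki67 UMI, 0.364% of wild-type microglia (0.739% by that count before thinning). Cells with Xist and no Y-linked counts gave 0.54 (microglial G2-M), 0.51 and -0.23 (lineage G2-M and S phase), medians of 0.47, -0.17 and -0.38 (fork), 6 G2-M genes at 1.5 times and 12 at a ratio of 2. Cells with Y-linked counts and no Xist gave 0.48 (microglial G2-M), 8 and 11 such genes, 0% cycling wild-type microglia and a motor median of 0.37. With no limit on the second score, chosen after seeing the data, the values were 0.35 (lineage G2-M), 5 G2-M genes at 1.5 times, and medians of 0.41 (G2-M) and 0.26 (motors). Means of per-cell CPM gave 0.29 (microglial G2-M), -0.0032 (lineage S phase), 0.0102 (S phase median) and -0.0453 (fork median). Leaving out Hmgb2, Cks2 and Kpna2, also chosen after seeing the data, gave 1.27 in microglia and 0.41 in the lineage. The G2-M median was 0.38 under the stricter filter, 0.39 with a pseudocount of 1 CPM, 0.39 without the cell with most G2-M UMIs (chosen after seeing the data), 0.12 in early cells and 0.55 in cycling cells, and the S phase median -0.17 and 0.0012 in the last 2. At 1.5 times stood 0 G2-M genes in early and 8 in cycling cells. The fork median was -0.10 without a minimum level. Defining cycling by at least 5 UMIs of 15 other G2-M genes gave 25.4% of mutant lineage cells. Counts at a ratio of 2 treat genes with too few UMIs as not reaching it. The causes were not tested. Depth limits the G2-M genes outside the lineage, where most are under 50 CPM.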
